A study of Oryza sativa with 15 samples.

Results

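Severe drought and acute heat were compared directly in rice shoots (Oryza sativa) of the japonica cultivar Nipponbare. The comparison sets against each other 6 of the 15 mRNA libraries of the study, chosen by their labels: 3 from severe drought and 3 from plants heated for 60 min. The other libraries were a wet control, mild drought with 1.5 g of water per g, and 30 min at 40 °C in wet soil. They helped set the filter, the scaling and the spread in the model. Severe drought plants grew in soil with 1.25 g of water per g and were never heated. The 60 min heat plants grew in wet soil with 3 g of water per g and stood in a chamber at 40 °C for the last 60 min. Wet control plants, whose 3 libraries are given beside the others as a further level, had the same 3 g per g and no heat. All were Nipponbare seedlings, 7 per pot, that had germinated over 3 days and then grew over 10 days at 90% humidity, with days of 12 h at 30 °C and nights at 27 °C, and whole shoots were harvested 6 h after dawn. The groups therefore differed in soil water, in temperature and in how long the stress lasted, 10 days in dry soil against 60 min in heat, and these cannot be told apart in the contrast. Whether replicates stem from different pots is not stated in the labels, so the p-values reflect the spread among libraries, some of which may be technical.

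As background, heat unfolds proteins, and plants answer through heat shock factors, transcription factors that switch on genes for chaperones: small heat shock proteins hold unfolded proteins, HSP100 disaggregases pull aggregates apart and HSP90 folds clients. Soil drying is sensed in large part through abscisic acid (ABA), a hormone whose receptors block clade A PP2C phosphatases and so free SAPK kinases (the rice SnRK2 family), which act on transcription factors. Genes for dehydrins and other late embryogenesis abundant (LEA) proteins, which protect dried cells, are known targets of that route. The direct contrast asks which of these transcripts differ between a shoot in dry soil and a shoot in heat.

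Libraries held 52596199 to 60320309 counts in severe drought and 58426465 to 76678737 after 60 min of heat. The 10 most abundant genes took 14.4 to 16% of counts in severe drought and 9.48 to 10.3% after 60 min of heat. Over the 6 libraries, a first principal component of log2 CPM held 68.6% of the variance and separated the groups, and the second, with 16.4%, spread libraries within each group, with severe drought replicate 1 farthest out. The labelled tissue was checked by its markers. RBCS-C, which encodes the small subunit of Rubisco, had 19824, 20412 and 24896 CPM in severe drought, against 10024, 8195 and 6875 CPM after 60 min of heat. The root silicon transporter gene LSI2 and the meristem gene OSH1 had 0 counts in all 6 libraries, and LSI1, the other silicon transporter, had 22.5, 15.3 and 29.4 CPM in severe drought, against 20.3, 14.8 and 18.5 CPM after 60 min of heat, with overlap. FON1, another meristem gene, had 26.5, 14.8 and 28.7 CPM in severe drought, against 15.1, 12 and 12.9 CPM after 60 min of heat (log2 fold change of severe drought over 60 min heat, with its SE, 0.81 ± 0.26, adjusted p = 0.0289, edgeR), a rise whose part in the other results was not tested. FON1 missed the threshold without severe drought replicates 1 and 3 or 60 min heat replicates 2 and 3 in turn (adjusted p 0.0826 to 0.12). In bulk shoots, fewer cells of a type and less RNA per cell cannot be told apart.

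Severe drought differed from 60 min of heat in 35.2% of 20462 genes tested, with 3441 (16.8%) higher and 3761 (18.4%) lower in severe drought (edgeR quasi-likelihood F-test, Benjamini-Hochberg adjusted p under 0.05, as throughout). Values per library are CPM, read counts relative to library size after TMM scaling, and log2 fold changes are severe drought over 60 min heat, ± SE. The median log2 fold change was 0.02 over all genes tested, 1.08 among the genes called higher and -1.14 among those called lower. Large differences lay mostly on the low side. Past a 4-fold difference 571 genes lay on the high and 1061 on the low side in severe drought, and past 32-fold 39 and 177. Both large falls named by rule were small heat shock protein genes. HSP26.7, which encodes a chloroplast small heat shock protein, had 0.0734, 0.0288 and 0.0337 CPM in severe drought, against 9634, 8896 and 8269 CPM after 60 min of heat, a log2 fold change of -17.57 ± 1.65 (adjusted p = 5.72e-06, edgeR). HSP21.9 had 0, 0.0288 and 0 CPM in severe drought, against 464, 406 and 456 CPM after 60 min of heat. The 2 counts in severe drought, both in replicate 2, give a ratio of 40267 (95% counting interval 11147 to 332498), and without that replicate HSP21.9 was at least 16686-fold lower. Among genes far higher in severe drought than after heat were 2 loci that no table used here names. LOC_Os11g35930 had 3.8, 26.1 and 24.3 CPM in severe drought, against 0.379, 0.035 and 0.212 CPM after 60 min of heat (log2 fold change 6.44 ± 1.46, adjusted p = 0.0045, edgeR), and 7.21 on the log2 scale without 60 min heat replicate 1. LOC_Os07g02120 had 10.4, 6.46 and 8.58 CPM in severe drought, against 0.157, 0.163 and 0.0908 CPM after 60 min of heat (log2 fold change 5.92 ± 0.64, adjusted p = 1.7e-05, edgeR). The naming rule asked for no overlap between the groups. In the wet control LOC_Os11g35930 had 7.19, 2.2 and 9.11 CPM. Its heat libraries lay under the wet ones, and its drought libraries overlapped them. LOC_Os07g02120 had 1.13, 1.95 and 0.485 CPM in the wet control, under its drought libraries and above its heat libraries.

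**Figure D1:**
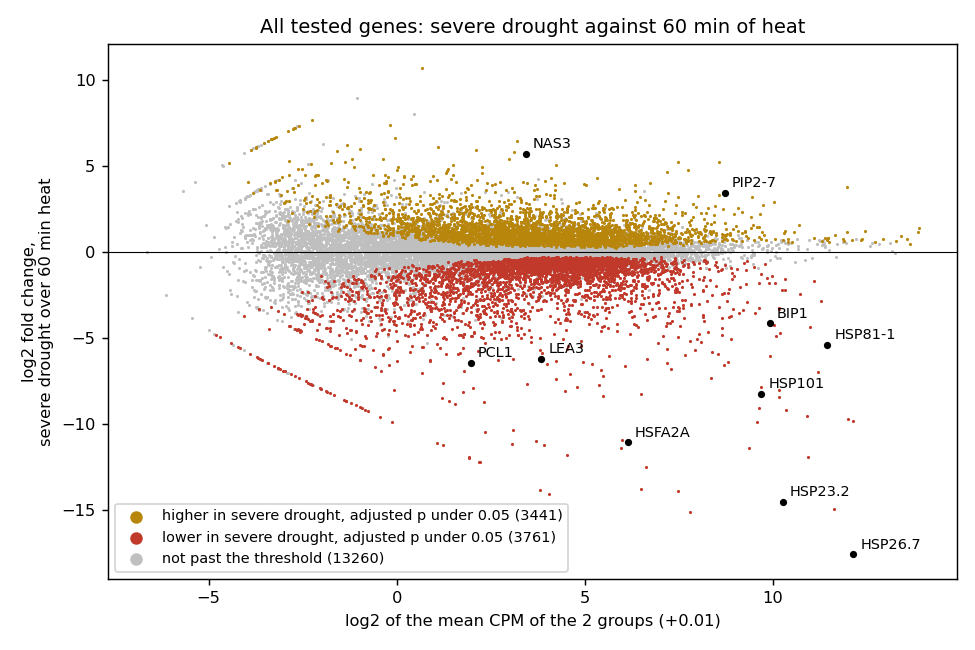
Each point is 1 of 20462 tested genes, with the log2 of its mean CPM over severe drought and 60 min heat on the horizontal axis and its log2 fold change, severe drought over 60 min heat, on the vertical axis. Genes past the threshold number 3441 above 0 and 3761 under it, and the named heat shock genes lie far down on the right, with HSP26.7 lowest at -17.57; diagonal lines of points at the left are genes with 0 counts in a group, whose fitted fold changes are no measure of size.

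Named genes were read in lists by role. The listed HSP70 chaperone genes outside the endoplasmic reticulum and the listed ABA receptor genes matched no reference symbol at the expected place, so none is named here. Members named by rule had to show no overlap of the 6 libraries, where a list held such members, so their lack of overlap is no further result. Over all genes tested, 25.4% had every severe drought library above every heat library, and 27.4% had each one under. In the plot of members by list, the lowest medians were those of the small heat shock protein, HSP100, iron, HSP90, LEA and endoplasmic reticulum lists. HSP100 genes had a median of -5.79 and HSP90 genes one of -3.92. The highest medians were those of the cell division, expansin and photosynthesis lists. However, 8 of 11 cell division and 10 of 13 expansin genes did not pass the test, so those 2 medians rest on such members.

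**Figure D2:**
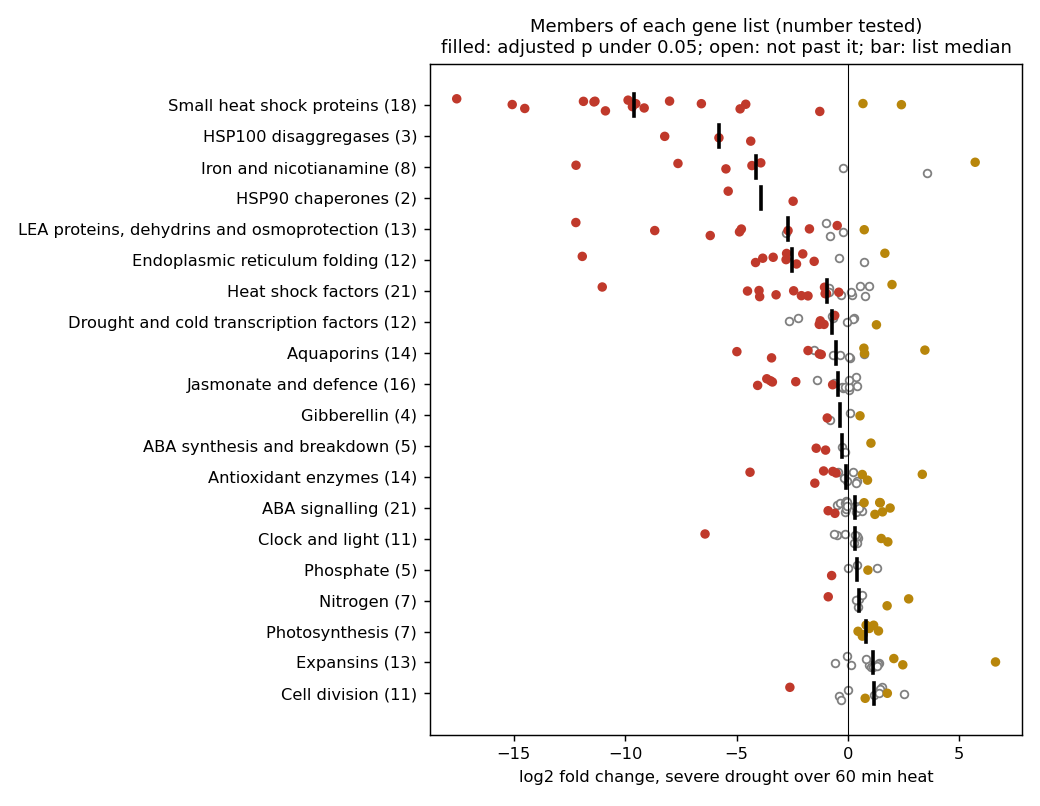
Each point is a tested gene of a list (number tested in brackets), placed by its log2 fold change, severe drought over 60 min heat, with a black bar at the list median. Filled points passed an adjusted p of 0.05, and the lists run from small heat shock proteins (median -9.60) at the top to cell division (median 1.16) at the bottom.

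Of 18 small heat shock protein genes tested, 16 were lower and 2 higher in severe drought, beside 18.4% lower and 16.8% higher over all genes tested. Their median log2 fold change was -9.60. Summed over the list, they held 216 to 319 CPM in severe drought and 34756 to 40805 CPM after 60 min of heat, with 235 to 295 CPM in the wet control. Set against the wet control, whose libraries both comparisons share, the list median was -0.16 in severe drought and 9.44 after 60 min of heat. HSP17.9A, of the cytosolic class, had 8.34, 10.7 and 10.7 CPM in severe drought, against 8440.1, 8183 and 7676 CPM after 60 min of heat, and 6.78, 7.04 and 19.2 CPM in the wet control. Its log2 fold change was -9.68 ± 0.47 (adjusted p = 1.89e-08, edgeR). In severe drought it stayed inside the wet control's range while the heat libraries lay far above both. HSP24.1, a mitochondrial member, had 8.61, 8.32 and 9.44 CPM in severe drought, against 2426, 2256 and 2115 CPM after 60 min of heat, a log2 fold change of -8.01 ± 0.41 (adjusted p = 2.99e-08). HSP18.0 had 3.43, 5.39 and 6.78 CPM in severe drought, against 4105, 3702 and 3713 CPM after 60 min of heat (-9.53 ± 0.57 on the log2 scale, adjusted p = 1.06e-07). HSP16.9B had 1.51, 2.32 and 1.01 CPM in severe drought, against 1795, 1366 and 1395 CPM after 60 min of heat (-9.87 ± 0.63, adjusted p = 1.75e-07). The groups of these genes stood orders of magnitude apart in every library. HSP16.9B lies in a run of tandem copies with HSP16.9A and HSP16.9C, whose reads may be shared.

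HSP16.0, another small heat shock protein gene, had 30, 21 and 30.7 CPM in severe drought, against 804, 785 and 748 CPM after 60 min of heat, with 13.3, 17.7 and 17.8 CPM in the wet control, and its log2 fold change was -4.84 ± 0.22 (adjusted p = 1.25e-08, edgeR). HSP26.2 had 4.92, 4.89 and 4.04 CPM in severe drought, against 111, 114 and 108 CPM after 60 min of heat (-4.59 ± 0.22, adjusted p = 1.35e-08). For both genes each severe drought library was above each wet control library, and the heat libraries were higher again. The 2 members that were higher in severe drought are named because they went against the rest, after their values were seen. HSP18.9 had 9.55, 8.18 and 13 CPM in severe drought, against 1.69, 2.63 and 1.47 CPM after 60 min of heat, with 3.7, 4.1 and 6.42 CPM in the wet control (2.41 ± 0.35 on the log2 scale, adjusted p = 0.000176). HSP18.8 had 73.8, 67.9 and 87.6 CPM in severe drought, against 52.9, 44.6 and 45.7 CPM after 60 min of heat, with 73.7, 79.1 and 93.1 CPM in the wet control (0.68 ± 0.14, adjusted p = 0.00251). For both, every heat library lay under every wet control library, so these members were low in heat. For HSP18.9 every severe drought library also lay above every wet control library, while those of HSP18.8 overlapped the wet control.

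The 3 HSP100 and 2 HSP90 genes tested were all lower in severe drought, beside 18.4% lower over all genes tested. HSP101, the cytosolic disaggregase that plants need to survive severe heat, had 4.06, 8.15 and 4.24 CPM in severe drought, against 1615, 1548 and 1775 CPM after 60 min of heat, and 1.42, 1.77 and 4.71 CPM in the wet control. Its log2 fold change was -8.23 ± 0.51 (adjusted p = 1.35e-07, edgeR). CLPB-M, the mitochondrial form, had 14.2, 11.7 and 9.59 CPM in severe drought, against 584, 637 and 744 CPM after 60 min of heat (-5.79 ± 0.21 on the log2 scale, adjusted p = 2.41e-09). CLPB-C, the chloroplast form, had 285, 139.9 and 136 CPM in severe drought, against 3873, 3821 and 3842 CPM after 60 min of heat, and 147, 181 and 109 CPM in the wet control (-4.36 ± 0.39, adjusted p = 3.7e-06). Severe drought replicate 1 was the highest of the drought libraries and lay above each wet library, and the others lay inside the wet range. HSP81-1, a cytosolic HSP90, had 123, 135 and 134 CPM in severe drought, against 5515, 5390.2 and 5401 CPM after 60 min of heat, with 189, 165 and 218 CPM in the wet control (-5.38 ± 0.18, adjusted p = 1.7e-09). Its drought libraries all lay under the wet ones. HSP81-2 had 141, 92 and 136 CPM in severe drought, against 611, 692 and 721 CPM after 60 min of heat (-2.46 ± 0.20, adjusted p = 1.41e-06), with no overlap.

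Of 21 heat shock factor genes tested, 12 were lower and 1 higher in severe drought, with a list median of -0.96. Over all genes tested 18.4% were lower and 16.8% higher. The largest fall was that of HSFA2A, a class A factor of the type that activates transcription. HSFA2A had 0.0367, 0.0865 and 0.0673 CPM in severe drought, against 118, 136 and 167 CPM after 60 min of heat, and 0.249, 0.0277 and 1.43 CPM in the wet control. Its log2 fold change was -11.03 ± 1.26 (adjusted p = 3.02e-05, edgeR), and its severe drought libraries were near 0. HSFA2C, of the same class, was present in every group. It had 10.2, 14.1 and 12.1 CPM in severe drought, against 173, 202 and 192 CPM after 60 min of heat (-3.96 ± 0.21 on the log2 scale, adjusted p = 4.52e-08). Of 5 class B factor genes, whose products lack the activation domain, 4 were lower in severe drought, and HSFB4B did not pass the test (0.55 ± 1.11, adjusted p = 0.733). HSFB2B had 1.69, 2.02 and 1.97 CPM in severe drought, against 38.9, 40.9 and 49.6 CPM after 60 min of heat (-4.51 ± 0.27, adjusted p = 9.08e-08), and HSFB2C had 41.5, 31.7 and 31.8 CPM in severe drought, against 315, 334 and 332 CPM after 60 min of heat (-3.22 ± 0.19, adjusted p = 1.02e-07). HSFB2A and HSFA9 followed with log2 fold changes of -2.43 ± 0.19 and -1.79 ± 0.13 (adjusted p = 1.08e-06 and 4.05e-07). These 6, picked by a rule that asks for it, did not overlap between the groups, beside 27.4% of all genes tested with every severe drought library under every heat library. HSFA1, the single tested member of the class A1 that in tomato and Arabidopsis acts first in the heat response, had 61.7, 50.5 and 47.6 CPM in severe drought, against 45.5, 47.4 and 47.8 CPM after 60 min of heat and did not pass the test (0.18 ± 0.14, adjusted p = 0.343). HSFC2B was the 1 factor higher in severe drought and is named for that after its value was seen. It had 1.49, 6.19 and 5.25 CPM in severe drought, against 1.45, 0.967 and 0.847 CPM after 60 min of heat, and 0.51, 0.125 and 0.323 CPM in the wet control (1.98 ± 0.56, adjusted p = 0.0151). HSFC2B missed the threshold without severe drought replicate 2 or 60 min heat replicates 2 and 3 in turn (adjusted p 0.0547 to 0.0607). Without severe drought replicate 1 the count higher was 2. The count lower was 10 without severe drought replicate 3 or 60 min heat replicate 2.

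**Figure D3:**
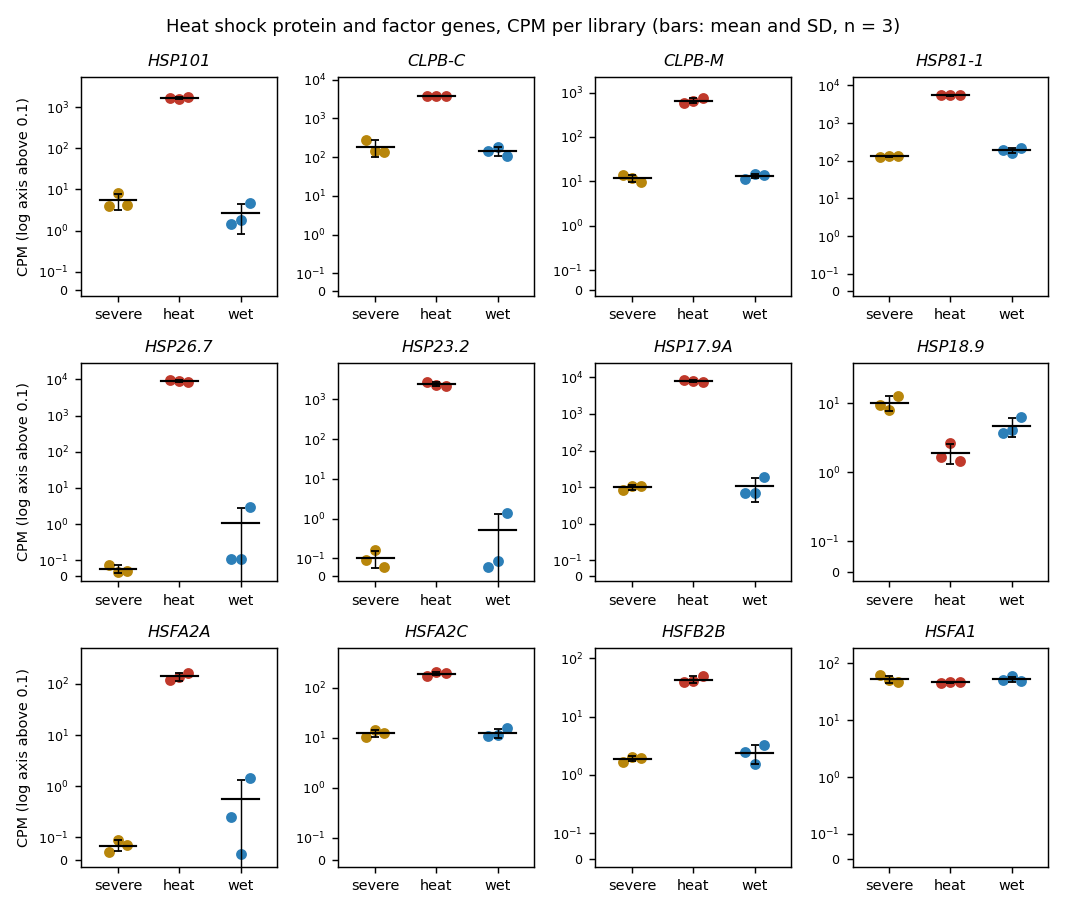
CPM per library of 12 heat shock protein and heat shock factor genes in severe drought, after 60 min of heat and in the wet control, on axes that are logarithmic above 0.1 and linear to 0 under it. Points are libraries, horizontal bars the mean and vertical bars the SD (n = 3). HSFA1 lies at 45.5 to 61.7 CPM in the severe drought and heat libraries, HSP18.9 is lowest in heat, and the other 10 genes are highest in heat in each library.

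Chaperones of the endoplasmic reticulum (ER) and the factors that induce them when proteins misfold there were also lower in severe drought. Of 12 tested, 9 were lower and 1 higher, beside 18.4% lower and 16.8% higher over all genes tested, with a median of -2.53. The list median against the shared wet control was -0.18 in severe drought and 2.35 after 60 min of heat. BIP1, the main ER-resident HSP70, had 131, 87.8 and 89.7 CPM in severe drought, against 2419.8, 1445 and 1598 CPM after 60 min of heat, and 184, 124 and 111 CPM in the wet control, a log2 fold change of -4.15 ± 0.36 (adjusted p = 2.42e-06, edgeR). CRT1, a calreticulin that folds glycoproteins, had 114, 89.7 and 110.3 CPM in severe drought, against 1201, 996 and 1018 CPM after 60 min of heat (-3.35 ± 0.21, adjusted p = 1.15e-07). PDIL2-3, a protein disulfide isomerase, had 27.9, 23.9 and 26.3 CPM in severe drought, against 459, 317 and 331 CPM after 60 min of heat (-3.82 ± 0.23, adjusted p = 1.06e-07). In each of these genes, picked by a rule that asks for no overlap with the heat libraries, no severe drought library was above the range of the wet control. The sensor and its factors were lower as well. IRE1, the membrane sensor that splices the mRNA of BZIP50, had 29.4, 27.3 and 22.3 CPM in severe drought, against 70.6, 77.6 and 77.1 CPM after 60 min of heat (-1.51 ± 0.15, adjusted p = 8.43e-06). BZIP50 itself had 8.65, 7.77 and 8.74 CPM in severe drought, against 53.6, 52.3 and 66.3 CPM after 60 min of heat (-2.78 ± 0.23, adjusted p = 1.57e-06). BZIP60, another ER stress factor, had 12.1, 13.2 and 11.6 CPM in severe drought, against 78.7, 83.3 and 87 CPM after 60 min of heat (-2.75 ± 0.16, adjusted p = 6.78e-08). PDIL1-2 was the member higher in severe drought, named after its value was seen, with 2.18, 1.79 and 1.78 CPM in severe drought, against 0.497, 0.548 and 0.772 CPM after 60 min of heat (1.66 ± 0.31, adjusted p = 0.0012). The count higher was 2 without 60 min heat replicate 2.

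Of 21 ABA signalling genes tested, 6 were higher and 2 lower in severe drought, with a median of 0.30. That is near the 35.2% called over all genes tested, of which 16.8% were higher and 18.4% lower. PP2C phosphatases, which hold the pathway off and are themselves ABA-induced, made up 5 of the 6 higher genes. Of 9 such genes tested, the other 4 did not pass the test, with log2 fold changes of 0.62 ± 0.40 for PP2C68, 0.51 ± 0.94 for PP2C51, -0.05 ± 0.22 for PP2C50 and -0.10 ± 0.11 for PP2C53. PP2C30 missed the threshold without severe drought replicate 2 or 60 min heat replicates 1 and 3 in turn (adjusted p 0.0598 to 0.119). PP2C09 had 82.7, 139 and 97.5 CPM in severe drought, against 40.9, 30 and 37.7 CPM after 60 min of heat, and 25.6, 27.7 and 24 CPM in the wet control, a log2 fold change of 1.56 ± 0.20 (adjusted p = 6.14e-05, edgeR). PP2C08 had 11, 17.2 and 12 CPM in severe drought, against 5.06, 5.55 and 4.02 CPM after 60 min of heat (1.46 ± 0.29, adjusted p = 0.00173), and PP2C06 had 61, 113 and 65.3 CPM in severe drought, against 29.9, 27.8 and 31 CPM after 60 min of heat (1.43 ± 0.31, adjusted p = 0.00357). In these phosphatase genes severe drought replicate 2 was highest, and the lowest drought library was still above every heat library, as in 25.4% of all genes tested. PP2C49 had 4.68, 23.8 and 11.1 CPM in severe drought, against 3.19, 3.25 and 4.19 CPM after 60 min of heat (1.90 ± 0.47, adjusted p = 0.00758). Its fold change rested in part on severe drought replicate 2, and without it was 1.16 (adjusted p = 0.0436). The SAPK kinases did not move together. SAPK5 was higher in severe drought, with 47.4, 50 and 47.1 CPM in severe drought, against 32.2, 27.7 and 27.2 CPM after 60 min of heat (0.73 ± 0.15, adjusted p = 0.00207). SAPK8 was lower, with 38.1, 39 and 37.3 CPM in severe drought, against 58.4, 57.4 and 55.3 CPM after 60 min of heat (-0.58 ± 0.09, adjusted p = 0.000312), and its severe drought libraries lay close to the wet control at 38.9, 40.5 and 40.3 CPM. Other members, among them the ABA-responsive factor genes BZIP23 (adjusted p = 0.954) and TRAB1 (adjusted p = 0.504), did not pass the test.

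NCED3, which encodes a carotenoid-cleaving enzyme of ABA synthesis, did not pass the test between the stresses. It had 2.41, 5.08 and 2.73 CPM in severe drought, against 3.87, 4.13 and 3.33 CPM after 60 min of heat (-0.15 ± 0.43, adjusted p = 0.819, edgeR), and 0.274, 0.816 and 0.848 CPM in the wet control, so each library of both stresses lay above each wet one. The ABA 8'-hydroxylase genes, which encode the enzymes that break ABA down, differed among themselves. ABA8OX1 was lower in severe drought, with 2.13, 4.02 and 2.52 CPM in severe drought, against 5.41, 8.44 and 9.44 CPM after 60 min of heat (-1.42 ± 0.33, adjusted p = 0.00487). ABA8OX2 was higher, with 15, 13.6 and 13.8 CPM in severe drought, against 6.69, 8.67 and 5.3 CPM after 60 min of heat (1.04 ± 0.24, adjusted p = 0.00534). ABA8OX3 had 24.5, 12.7 and 18.6 CPM in severe drought, against 36.8, 36.3 and 38.5 CPM after 60 min of heat (-1.001 on the log2 scale, adjusted p = 0.0266), without overlap. ABA8OX3 missed the threshold without severe drought replicates 2 and 3 or 60 min heat replicates 1, 2 and 3 in turn (adjusted p 0.0555 to 0.11).

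Of 8 dehydrin and LEA genes tested, 6 were lower in severe drought than after 60 min of heat, beside 18.4% lower over all genes tested. RAB16B (-2.76 ± 1.21 on the log2 scale, adjusted p = 0.0945) and RAB16C (-0.81 ± 0.54, adjusted p = 0.269) did not pass the test. With the osmoprotection genes the list held 13 tested, 8 lower and 1 higher, and had a median of -2.69. Over all genes tested 18.4% were lower and 16.8% higher. The list's count lower was 6 without severe drought replicate 3 and 7 without 60 min heat replicate 1 or 3. RAB21 missed the threshold without severe drought replicate 3 (adjusted p = 0.0516). LIP9, a dehydrin, had 15.1, 29.5 and 21.1 CPM in severe drought, against 147, 118 and 159 CPM after 60 min of heat, and 15.4, 21.7 and 16.4 CPM in the wet control. Its log2 fold change was -2.69 ± 0.25 (adjusted p = 4.05e-06, edgeR), and its severe drought libraries overlapped the wet control. LEA3, a group 3 LEA gene, had 0.367, 0.49 and 0.303 CPM in severe drought, against 22.6, 11.8 and 50.7 CPM after 60 min of heat (-6.18 ± 1.25, adjusted p = 0.00216), and 2.66, 0.194 and 0.552 CPM in the wet control. The heat libraries of LEA3 were spread widely, and without heat replicate 3 the log2 fold change was -5.45. RAB16D, a dehydrin of the tandem RAB16 run, had 0, 0.0288 and 0 CPM in severe drought, against 6.14, 5.51 and 3.87 CPM after 60 min of heat. Its 2 counts in severe drought, both in replicate 2, give a ratio of 481 in favour of heat (95% counting interval 133 to 3975), and without that replicate RAB16D was at least 199-fold lower. In the wet control RAB16D had 0.124, 0.111 and 0.0538 CPM.

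Several members of the same list were instead near their wet level after heat and under it in drought. LEA3-2 had 0.845, 1.64 and 1.3 CPM in severe drought, against 38.5, 27.8 and 38.5 CPM after 60 min of heat, and 30.4, 92.3 and 71.6 CPM in the wet control (-4.78 ± 0.98 on the log2 scale, adjusted p = 0.0024, edgeR). EMP1, a group 1 LEA gene, had 0 counts in all 3 severe drought libraries, against 13.5, 1.54 and 12.6 CPM after 60 min of heat and 2.9, 18.4 and 7.66 CPM in the wet control. With 3 counts over the group as the floor, EMP1 was at least 533-fold lower in severe drought than after heat (adjusted p = 0.00532), and at least 331-fold without severe drought replicate 2. TPP2, a trehalose 6-phosphate phosphatase, had 2.7, 3.17 and 2.52 CPM in severe drought, against 9.59, 7.59 and 10.6 CPM after 60 min of heat, and 9.09, 19.3 and 11.5 CPM in the wet control (-1.73 ± 0.32, adjusted p = 0.00108). In all of these the severe drought libraries lay under the wet control as well. TPP7, of the same enzyme family, was the 1 member higher in severe drought and overlapped between the groups, with 38.2, 19.9 and 44 CPM in severe drought, against 18.3, 20.6 and 22.4 CPM after 60 min of heat (0.74 ± 0.27, adjusted p = 0.0462). TPP7 missed the threshold without severe drought replicates 1 and 3 or 60 min heat replicates 1, 2 and 3 in turn (adjusted p 0.0805 to 0.199). The list median was the same with EMP1 set at its bound.

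Among 12 drought and cold transcription factor genes tested, 1 was higher and 4 were lower in severe drought, beside 16.8% higher and 18.4% lower over all genes tested, with a median of -0.69. HOX6, a homeodomain-leucine zipper factor, was the higher one, with 12.9, 21.5 and 17.7 CPM in severe drought, against 9.38, 5.77 and 6.23 CPM after 60 min of heat, and 12.3, 15.7 and 16 CPM in the wet control (1.28 ± 0.23 on the log2 scale, adjusted p = 0.000906, edgeR). HOX22, of the same family, had 62.3, 79.5 and 53.5 CPM in severe drought, against 57, 49.6 and 55.8 CPM after 60 min of heat and did not pass the test (0.27 ± 0.17, adjusted p = 0.261), while each library of both stresses lay above the wet control at 19.9, 29 and 24.6 CPM. NAC5, a stress-inducible NAC factor, had 39.1, 27.2 and 29.2 CPM in severe drought, against 73.5, 72.8 and 86.4 CPM after 60 min of heat (-1.28 ± 0.23, adjusted p = 0.000907). DREB2A, a factor that binds the dehydration-responsive element, had 3.29, 4.9 and 4.58 CPM in severe drought, against 7.48, 9.66 and 9.7 CPM after 60 min of heat (-1.07 ± 0.19, adjusted p = 0.00102), and DREB1A had 1.18, 0.692 and 0.808 CPM in severe drought, against 2.2, 1.97 and 2.15 CPM after 60 min of heat (-1.24 ± 0.28, adjusted p = 0.00459). For NAC5 and DREB2A the heat libraries stood above the wet control, at 36.2, 49.3 and 34.4 CPM and 5.54, 4.29 and 5.33 CPM, and the drought libraries overlapped it. DREB2B had 45.4, 35.7 and 35.9 CPM in severe drought, against 56.6, 60.6 and 58.9 CPM after 60 min of heat (-0.59 ± 0.19, adjusted p = 0.031). DREB2B missed the threshold without severe drought replicates 2 and 3 or 60 min heat replicates 1, 2 and 3 in turn (adjusted p 0.0566 to 0.112).

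**Figure D4:**
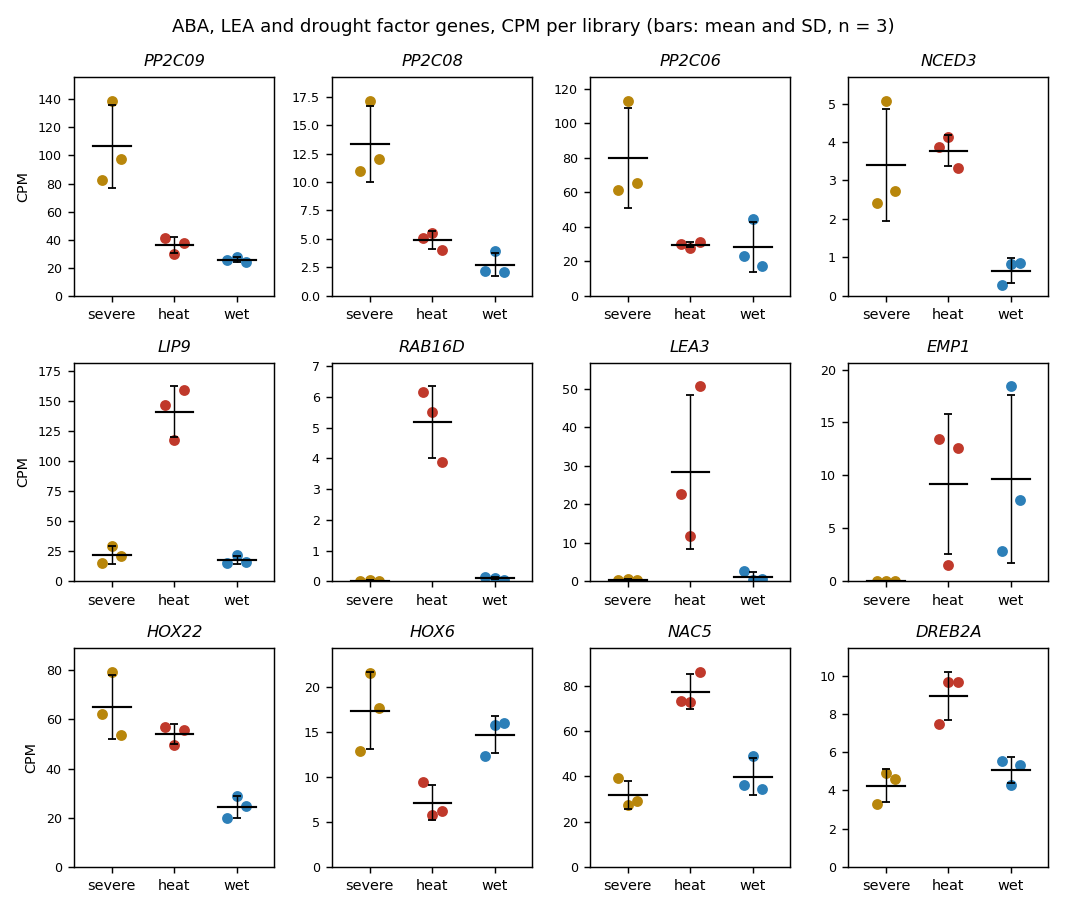
CPM per library of ABA, LEA and drought factor genes in severe drought, after 60 min of heat and in the wet control, on linear axes from 0. Points are libraries, horizontal bars the mean and vertical bars the SD (n = 3). The PP2C genes and HOX6 are highest in severe drought against heat, LIP9, RAB16D, LEA3, EMP1, NAC5 and DREB2A are highest in heat against severe drought, and NCED3 and HOX22 overlap between both stresses.

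Aquaporins, the water channels of the plasma membrane (PIP) and vacuole (TIP), differed gene by gene. Of 14 tested, 3 were higher and 5 lower in severe drought, beside 16.8% higher and 18.4% lower over all genes tested, with a median of -0.51. PIP2-7 had 574, 955 and 778 CPM in severe drought, against 71.4, 80.9 and 57.2 CPM after 60 min of heat, and 377, 580.5 and 117 CPM in the wet control, a log2 fold change of 3.46 ± 0.52 (adjusted p = 0.000254, edgeR). Each heat library lay under each wet one, and the drought libraries overlapped the wet range. PIP1-1 was also higher in severe drought, with 926, 1072 and 1062 CPM in severe drought, against 635, 619 and 566 CPM after 60 min of heat (0.75 ± 0.16, adjusted p = 0.00319). TIP1-1, an abundant vacuolar channel, was lower, with 327, 516 and 441 CPM in severe drought, against 1601, 1326 and 1510.4 CPM after 60 min of heat, and 388, 595 and 873 CPM in the wet control (-1.79 ± 0.31, adjusted p = 0.000703). PIP1-2 had 360.1, 619 and 469 CPM in severe drought, against 1298, 1184 and 1034 CPM after 60 min of heat (-1.28 ± 0.22, adjusted p = 0.000626), and PIP2-1 had 241, 334 and 298 CPM in severe drought, against 649, 709 and 641 CPM after 60 min of heat (-1.20 ± 0.20, adjusted p = 0.000593). For these 3 channels every heat library was above every wet control library. PIP2-4 had 1.1, 0.577 and 0.555 CPM in severe drought, against 5.78, 9.82 and 8.41 CPM after 60 min of heat (-3.43 ± 0.56, adjusted p = 0.000513). TIP1-2 did not pass the test (0.04 ± 0.20, adjusted p = 0.897), with 1030.1, 848 and 1106 CPM in severe drought, against 819, 1092 and 992 CPM after 60 min of heat. Each library of both stresses was above the wet control of TIP1-2, at 244, 298 and 227 CPM.

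Of 14 genes for enzymes that remove reactive oxygen, 3 were higher and 5 lower in severe drought, beside 16.8% higher and 18.4% lower over all genes tested, with a median of -0.10. CATA, a catalase, had 395, 779 and 889.7 CPM in severe drought, against 71.5, 69 and 62.7 CPM after 60 min of heat, and 835, 648 and 1431 CPM in the wet control, a log2 fold change of 3.34 ± 0.44 (adjusted p = 8.35e-05, edgeR). The difference came with low heat libraries, since the drought libraries overlapped the wet control. APX2, a cytosolic ascorbate peroxidase, had 525, 469 and 465 CPM in severe drought, against 1365, 1462 and 1248 CPM after 60 min of heat, and 414, 393 and 394 CPM in the wet control (-1.48 ± 0.13, adjusted p = 3.56e-06). APX3, a peroxisomal form, had 2.22, 5.29 and 5.71 CPM in severe drought, against 114, 89.5 and 75.4 CPM after 60 min of heat (-4.39 ± 0.75, adjusted p = 0.000719). In both peroxidase genes every heat library was above every library of the other groups. The cytosolic copper and zinc superoxide dismutase genes SODCC2 and SODCC1 were lower too, with log2 fold changes of -1.09 ± 0.18 and -0.68 ± 0.14 (adjusted p = 0.000542 and 0.00201). SODCC2 had 45.6, 67.2 and 74.9 CPM in severe drought, against 124, 139 and 136 CPM after 60 min of heat, with no overlap. APX5 was higher in severe drought, with 4.88, 4.73 and 5.2 CPM in severe drought, against 3.33, 2.96 and 3.16 CPM after 60 min of heat (0.65 ± 0.18, adjusted p = 0.0128). APX5 missed the threshold without 60 min heat replicate 2 (adjusted p = 0.0504). APX7, also higher, missed it without severe drought replicates 1 and 3 or 60 min heat replicates 1 and 3 in turn (adjusted p 0.0682 to 0.11). GRC2, also lower, missed it without any of the 6 libraries but 60 min heat replicate 1 (adjusted p 0.0575 to 0.144). The count higher was 2 unless severe drought replicate 2 was the library left out. The count lower was 4 unless 60 min heat replicate 1 was.

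Iron and nicotianamine genes differed strongly, and most of those called were lower in severe drought. Nicotianamine, made by NAS enzymes, binds iron for transport and is the precursor of the iron-chelating phytosiderophores of grasses. Of 8 genes tested, 1 was higher and 5 lower in severe drought, with a median of -4.11. Over all genes tested 16.8% were higher and 18.4% lower. NAS3 was the higher one. It had 18.9, 13.2 and 31 CPM in severe drought, against 0.183, 0.653 and 0.348 CPM after 60 min of heat, and 1.91, 1.63 and 0.579 CPM in the wet control (5.72 ± 0.78 on the log2 scale, adjusted p = 0.000122, edgeR), and 6.31 without heat replicate 2. NAS1 had 0 counts in all 3 severe drought libraries, against 8.01, 7.2 and 12.2 CPM after 60 min of heat and 4.31, 27.6 and 68.8 CPM in the wet control. It was at least 545-fold lower in severe drought than after heat (adjusted p = 0.000258), and at least 339-fold without severe drought replicate 2. Its neighbour NAS2, with which reads may be shared, had 0, 0.0577 and 0 CPM in severe drought, against 4.05, 4.46 and 5.42 CPM after 60 min of heat, and 2.64, 19.9 and 72.7 CPM in the wet control (-7.63 ± 1.43, adjusted p = 0.00199). All 4 severe drought counts of NAS2 were in replicate 2, and without it NAS2 was at least 175-fold lower. NAS1 and NAS2 thus lay opposite to NAS3.

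Later steps and the regulator of the same route were lower as well. NAAT1, the aminotransferase that acts after nicotianamine synthase, had 1.95, 1.46 and 0.842 CPM in severe drought, against 22.8, 18.2 and 22.8 CPM after 60 min of heat, and 35, 82.1 and 88.8 CPM in the wet control (-3.91 ± 0.55 on the log2 scale, adjusted p = 0.000151, edgeR). IRO3, a transcription factor that represses the iron deficiency response, had 31.1, 9.89 and 12.5 CPM in severe drought, against 399.9, 288 and 372 CPM after 60 min of heat, and 178, 329 and 311 CPM in the wet control (-4.31 ± 0.60, adjusted p = 0.000138), and -4.98 without severe drought replicate 1. YSL2, a transporter of iron bound to nicotianamine, had 0.992, 1.64 and 1.25 CPM in severe drought, against 31.1, 21.5 and 121 CPM after 60 min of heat (-5.48 ± 0.99, adjusted p = 0.00101), and -4.33 without heat replicate 3, its highest library. In NAAT1, IRO3 and YSL2 each severe drought library lay more than 5-fold under each heat library. In NAAT1 the heat libraries were also under each wet library, and in IRO3 they overlapped the wet ones. IRT1, the root iron uptake transporter, was near 1 CPM in each stress and did not pass the test (-0.22 ± 0.51, adjusted p = 0.772).

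Photosynthesis genes were higher in severe drought in all 7 of 7 cases tested, beside 16.8% higher over all genes tested, with a median of 0.82. The list held further loci without a matched symbol, which are not among the 7. Together they held 80470 to 95166 CPM in severe drought and 40585 to 49749 CPM after 60 min of heat, with 49162 to 82547 CPM in the wet control. CAB2R, which encodes a light-harvesting chlorophyll-binding protein, had 17674, 19964 and 23537 CPM in severe drought, against 10556, 8595 and 8253 CPM after 60 min of heat, and 10895, 18714 and 17108 CPM in the wet control. Its log2 fold change was 1.16 ± 0.24 (adjusted p = 0.0023, edgeR). RBCS-C, given above for each library, had a log2 fold change of 1.38 ± 0.31 (adjusted p = 0.00387). RCABP89 and RCABP69, other chlorophyll-binding proteins, followed with 0.96 ± 0.20 and 0.69 ± 0.18 on the log2 scale (adjusted p = 0.00245 and 0.0108). These 4 genes were picked by a rule that asks for no overlap between drought and heat libraries. The wet libraries of CAB2R and RBCS-C ran from just above the heat libraries into the drought range. OEE3 and PSAH, of photosystems II and I, had log2 fold changes of 0.65 ± 0.18 and 0.82 ± 0.24 (adjusted p = 0.0123 and 0.017). OEE3 missed the threshold without severe drought replicate 3 or 60 min heat replicate 3 in turn (adjusted p 0.0577 to 0.0604). PSAH missed the threshold without severe drought replicate 3 or 60 min heat replicates 2 and 3 in turn (adjusted p 0.0591 to 0.0861). The count higher was 4 of 7 without severe drought replicate 3, and 4 of 7 without 60 min heat replicate 3. CPM is a share of each library, and with libraries scaled by total counts alone all 7 were higher as well, with a median of 0.79.

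Of 11 clock and light genes tested, 2 were higher and 1 lower in severe drought, with a median of 0.34. These counts are near or under the 16.8% higher and 18.4% lower over all genes tested. PRR37, a pseudo-response regulator of the clock that also delays flowering, had 188, 159 and 175 CPM in severe drought, against 50.6, 51.7 and 48.2 CPM after 60 min of heat, and 108, 139 and 91.4 CPM in the wet control, a log2 fold change of 1.80 ± 0.18 (adjusted p = 8.34e-06, edgeR). PRR73, its close relative, had 843, 705 and 743 CPM in severe drought, against 273, 277 and 260.0 CPM after 60 min of heat (1.50 ± 0.19, adjusted p = 5.65e-05). For both, each heat library was under each wet library and, as the naming rule asks, under each drought library. PCL1, whose Arabidopsis relative is part of the evening complex, had 0.147, 0.0865 and 0.0337 CPM in severe drought, against 7.23, 7.77 and 8 CPM after 60 min of heat, and 1.23, 0.346 and 0.404 CPM in the wet control (-6.41 ± 0.65, adjusted p = 9.92e-06). PCL1 was highest in heat and lowest in drought, with no overlap with the wet libraries on either side. The morning gene LHY did not pass the test (0.34 ± 0.23, adjusted p = 0.268), nor did the afternoon gene GI (0.40 ± 0.26, adjusted p = 0.261). Without severe drought replicate 1, ELF3 of the evening complex was lower too, which made the count lower 2.

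**Figure D5:**
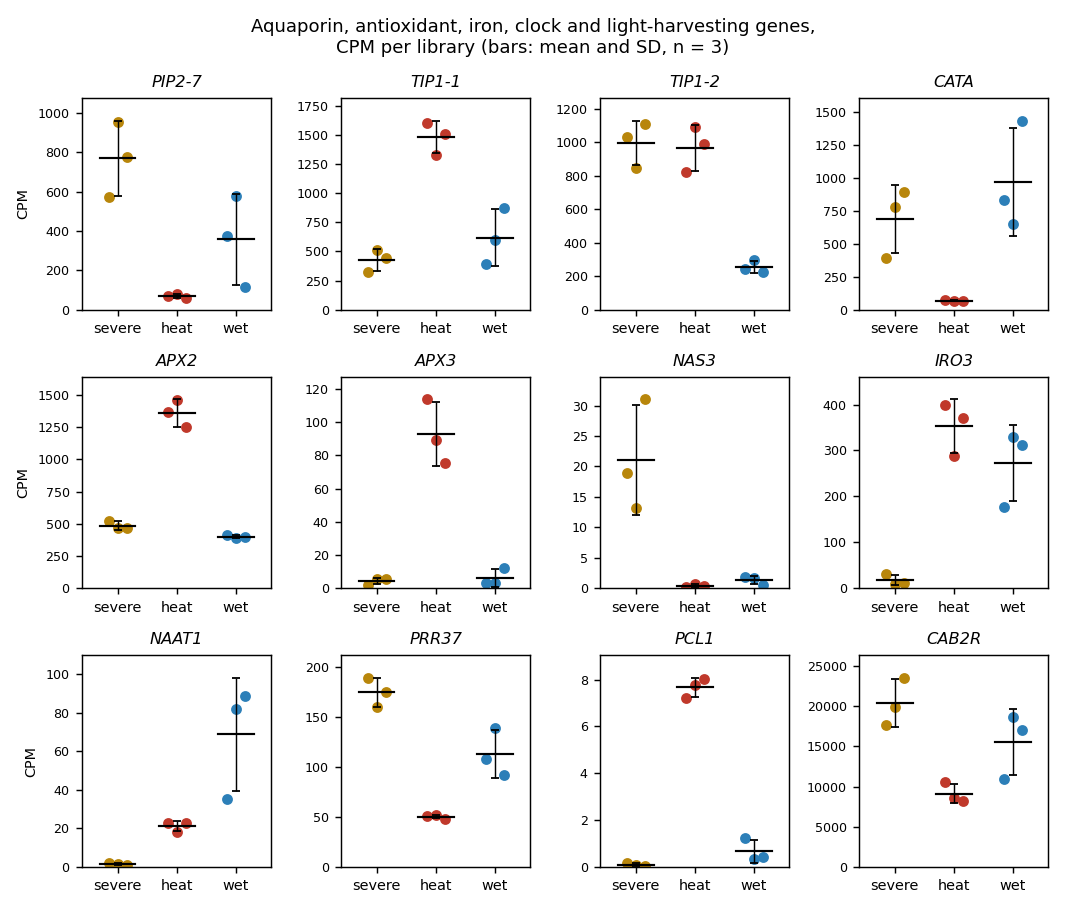
CPM per library of aquaporin, antioxidant, iron, clock and light-harvesting genes in severe drought, after 60 min of heat and in the wet control, on linear axes from 0. Points are libraries, horizontal bars the mean and vertical bars the SD (n = 3). PIP2-7, CATA, NAS3, PRR37 and CAB2R are higher in severe drought than in heat in each library, TIP1-1, APX2, APX3, IRO3, NAAT1 and PCL1 are lower, and TIP1-2 overlaps.

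Among 7 nitrogen genes tested, 2 were higher and 1 lower in severe drought, beside 35.2% called in either direction over all genes tested, with a median of 0.51. GS1-1, a cytosolic glutamine synthetase that takes up ammonium, had 274, 346 and 386 CPM in severe drought, against 93.9, 105 and 97.7 CPM after 60 min of heat, and 343, 325 and 423 CPM in the wet control (1.76 ± 0.21 on the log2 scale, adjusted p = 3.95e-05, edgeR). NIA1, a nitrate reductase, had 283, 144 and 115 CPM in severe drought, against 30.6, 25.2 and 25.7 CPM after 60 min of heat, and 115, 169 and 46.4 CPM in the wet control (2.73 ± 0.61, adjusted p = 0.00394). For both genes the heat libraries were under the wet control and the drought libraries overlapped it. GDH2, a glutamate dehydrogenase, had 6.39, 9.84 and 7.89 CPM in severe drought, against 14.3, 15.8 and 14.4 CPM after 60 min of heat (-0.88 ± 0.25, adjusted p = 0.0141). GDH2 missed the threshold without severe drought replicate 1 (adjusted p = 0.054). Of 5 phosphate genes tested, 1 was higher and 1 lower in severe drought, near the 16.8% higher and 18.4% lower over all genes tested. These were SPX2, which was higher, and SPX1, which was lower, both of which encode proteins that sense phosphate state. SPX2 had 3.8, 4.57 and 4.86 CPM in severe drought, against 2.38, 2.12 and 2.59 CPM after 60 min of heat (0.90 ± 0.22, adjusted p = 0.0075). SPX1 had 8.23, 11.6 and 10.4 CPM in severe drought, against 15.8, 17.9 and 16.5 CPM after 60 min of heat (-0.73 ± 0.22, adjusted p = 0.0224), with no overlap. SPX1 missed the threshold without severe drought replicates 1 and 3 or 60 min heat replicates 2 and 3 in turn (adjusted p 0.0545 to 0.0802).

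Expansin genes varied widely between the libraries of a group. Of 13 expansin genes tested, which loosen cell walls for expansion, 3 were higher and 0 lower in severe drought, beside 16.8% higher and 18.4% lower over all genes tested, with a median of 1.15, and at an unadjusted p under 0.05 the count lower was 0. The list sum was 51.1 to 273 CPM in severe drought and 33.7 to 95.8 CPM after 60 min of heat, and 118 to 472 CPM in the wet control. Severe drought replicate 2 and 60 min heat replicate 1 held the highest sums of their groups. EXPA6, the member at the list median, did not pass the test (adjusted p = 0.391, edgeR). Without severe drought replicate 2 its log2 fold change was 0.23. EXPA1 had 0.551, 4.38 and 0.741 CPM in severe drought, against 0.0261, 0.0233 and 0 CPM after 60 min of heat (6.63 ± 1.31 on the log2 scale, adjusted p = 0.00183, edgeR), and 5.09 without severe drought replicate 2. EXPB2 had 3.69, 14.6 and 9.51 CPM in severe drought, against 1.49, 2.33 and 1.2 CPM after 60 min of heat, and 11.2, 15.5 and 4.62 CPM in the wet control (2.47 ± 0.63, adjusted p = 0.00931). In both genes every drought library was above every heat library, as the naming rule asks. EXPB3, the third, had 18.8, 103 and 43.3 CPM in severe drought, against 21.7, 8.1 and 9.65 CPM after 60 min of heat (2.07 ± 0.63, adjusted p = 0.0229), with overlap, and 1.25 without severe drought replicate 2. EXPB3 missed the threshold without severe drought replicate 2 or 60 min heat replicates 2 and 3 in turn (adjusted p 0.0841 to 0.132). EXPB2 lies in a tandem run with EXPB3, EXPB4 and EXPB6, among which reads may be shared.

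Of 11 cell division genes tested, 2 were higher and 1 lower, near or under the 16.8% and 18.4% over all genes tested, with a median of 1.16, and 7 of them had under 1 CPM in each of the 6 libraries. MCM2, a subunit of the helicase that opens DNA for replication, had 3.75, 2.25 and 2.66 CPM in severe drought, against 0.68, 0.804 and 1.04 CPM after 60 min of heat, and 3, 3.63 and 3.57 CPM in the wet control (1.77 ± 0.28 on the log2 scale, adjusted p = 0.000321, edgeR). Its drought libraries lay on both sides of the wet range and its heat libraries under it. CDKB1-1, a mitotic kinase, had 6.87, 5.68 and 5.47 CPM in severe drought, against 3.45, 3.45 and 3.6 CPM after 60 min of heat (0.78 ± 0.24, adjusted p = 0.0249). MCM7, another subunit of the helicase, went the other way with 0.184, 0.0865 and 0.135 CPM in severe drought, against 0.588, 1.1 and 0.772 CPM after 60 min of heat (-2.60 ± 0.78, adjusted p = 0.0199). CDKB1-1 missed the threshold without severe drought replicate 1 or 60 min heat replicates 1, 2 and 3 in turn (adjusted p 0.0642 to 0.0776). MCM7 missed the threshold without severe drought replicates 2 and 3 or 60 min heat replicate 2 in turn (adjusted p 0.0637 to 0.0783). The gibberellin receptor gene GID1 had 40.6, 43.9 and 41.6 CPM in severe drought, against 77.2, 82.5 and 79.9 CPM after 60 min of heat (-0.93 ± 0.12, adjusted p = 0.000102), with 40.8, 48.5 and 54.3 CPM in the wet control. SLR1, the DELLA repressor that the receptor removes, had 89.2, 95.8 and 84.4 CPM in severe drought, against 65.7, 59 and 59.8 CPM after 60 min of heat (0.55 ± 0.12, adjusted p = 0.00424). Receptor and repressor thus lay on opposite sides, each named by a rule that asks for no overlap between the groups.

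Jasmonate and defence genes gave 6 lower and 0 higher of 16 tested in severe drought, beside 18.4% lower and 16.8% higher over all genes tested, with a median of -0.45, and at an unadjusted p under 0.05 the count higher was 0. TIFY11A, which encodes a JAZ repressor that jasmonate itself induces, had 0.22, 0.591 and 0.471 CPM in severe drought, against 8.1, 3.83 and 9.61 CPM after 60 min of heat, and 4.44, 18.9 and 6.26 CPM in the wet control (-4.05 ± 0.77 on the log2 scale, adjusted p = 0.00146, edgeR). OPR1, an oxophytodienoate reductase, had 2.28, 1.01 and 0.808 CPM in severe drought, against 10.6, 10.5 and 24.6 CPM after 60 min of heat (-3.48 ± 0.75, adjusted p = 0.00337). Every severe drought library of TIFY11A also lay under every wet library. AOS2, an allene oxide synthase early in jasmonate synthesis, had 0.477, 0.404 and 0.993 CPM in severe drought, against 3.49, 8.15 and 8.03 CPM after 60 min of heat, and 21.4, 2.74 and 1.91 CPM in the wet control (-3.39 ± 1.23, adjusted p = 0.0474). AOS2 missed the threshold without severe drought replicates 1, 2 and 3 or 60 min heat replicates 1, 2 and 3 in turn (adjusted p 0.0538 to 0.137). PBZ1, a pathogenesis-related protein of class 10, had 52.5, 12.7 and 61.3 CPM in severe drought, against 222, 919 and 436 CPM after 60 min of heat, and 728, 167 and 35.4 CPM in the wet control (-3.64 ± 1.19, adjusted p = 0.0309). PBZ1 spread widely in each group, and its log2 fold change was -2.96 without 60 min heat replicate 2. PBZ1 missed the threshold without severe drought replicates 1, 2 and 3 or 60 min heat replicates 2 and 3 in turn (adjusted p 0.0538 to 0.101). The count lower was 2 without severe drought replicate 1 or 60 min heat replicate 3 and 3 without severe drought replicate 3. The remaining 10 members, most of the other JAZ genes among them, did not pass the test.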

How the data were processed

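The deposited values are raw whole-number counts of reads per gene. The submitters' processing notes name Trimmomatic, HISAT2 and featureCounts, and the mRNA libraries were stranded and built with an NEBNext kit, per the labels' protocols. The sources used here do not give tool versions, the genome build or how strand was used in counting, so reads of overlapping, antisense or near-identical genes may be mixed. The table held 24073 genes and 15 libraries, 3 per group, grouped by sample title.

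The counts were modelled with edgeR 4.0.16 in R 4.3.3: filterByExpr (minimum count 10, minimum total 15) kept 20462 genes, and a robust quasi-likelihood model with TMM factors, 1 mean per group over all 15 libraries, gave F-tests with Benjamini-Hochberg adjustment at 0.05. TMM factors were 1.04 to 1.15 in severe drought and 1.07 to 1.13 after 60 min of heat. The SE is the log2 fold change divided by the square root of F. A floor of 3 counts per library was 0.0497 to 0.057 CPM in severe drought and 0.0391 to 0.0513 CPM after 60 min of heat. Bounds use 3 counts over the group, and ratios carry exact binomial intervals at 95%, which reflect counting error alone. Replicate pairs differed by more than sampling noise, with a chi-square per gene of 63.5 to 162 in severe drought and 33.8 to 73.3 after 60 min of heat. The method was tested on simulated data with 200 changed genes.

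The comparison and the gene lists were chosen with earlier results of these data known. Named genes were the 2 largest rises and 2 largest falls with at least 5 CPM and no overlap, and up to 6 members per list with the smallest p past the threshold and no overlap, or, in a list with none such, the member with the smallest p. Of 318 listed loci 304 were in the table, and 231 had a symbol in assembly ASM3414082v1 within 1000 kb of the place expected from locus order, which cannot separate tandem neighbours. Of those, 220 passed the filter. For 10 an alias was used, and some names were corrected once the reference was at hand. The alternatives tried were RLE factors, total counts only, no filter, DESeq2 1.42.0, other sets of libraries in the model, a replicate block, a further 2-fold limit, all listed loci, and each library left out in turn.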

Additional observations from a re-analysis of the deposited data

How the results depend on the processing

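The number of genes called stayed between 6735 and 8188 under RLE factors, total counts only, no filter, DESeq2, the groups alone and leaving out the 30 min heat group, and between 5197 and 6751 with 1 of the 6 libraries left out. The counts left ran from 2397 to 3219 higher and from 2797 to 3532 lower. With a test against a further 2-fold limit 1539 genes were called, 573 higher and 966 lower. Of 95 genes named by rule, 93 passed the threshold. The call stayed the same for 81 whichever library was left out, and for 56 under all alternatives. With the further 2-fold limit 39 lost their call. None reversed in direction. Depth limits genes near the floor: those with 0 to 3 counts over a group are given as bounds or ratios, and the fitted fold changes of HSP26.7, NAS2 and EXPA1 rest on few counts in their lower group.

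Replicate numbers did not pair the libraries: same-numbered severe drought and heat libraries had correlations of deviations of -0.42, -0.361 and 0.109, against -0.176 to 0.454 for the others. With the replicate block 7004 genes were called, 3321 higher and 3683 lower, and within the 6 libraries alone 5451, 2600 higher and 2851 lower. No severe drought library correlated best with its own number except replicate 3.

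With all listed loci in the table, whether or not a symbol was found, medians were 0.047 (ABA signalling, 5 lower), -0.62 (ABA synthesis and breakdown), 0.087 (clock and light, 3 lower), -0.90 (drought and cold factors), -2.76 (endoplasmic reticulum), 0.094 (gibberellin, 2 higher), -5.38 (HSP90 list, 5 lower), -2.55 (iron, 9 lower), -0.68 (jasmonate), -2.24 (LEA) and 0.66 (nitrogen, 4 higher). The HSP90 list then also held FKBP62B, which is not itself an HSP90 gene. Over all genes tested 16.8% were higher and 18.4% lower. Higher members numbered 2 in the phosphate list and 17 in the photosynthesis list. How many loci were tested in each wider list is not given here, so these counts cannot be set against those shares. Scaled by total counts only, 0 LEA members were higher.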
